A study of Mus musculus with 6 samples.

Results

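The genes described here encode RNA-binding proteins that set tissue-specific splicing in brain: *Ptbp1* and *Ptbp2*, *Mbnl1* and *Mbnl2*, *Nova1*, *A2bp1* and *Rbm9* (now named *Rbfox1* and *Rbfox2*), and *Elavl2*, *Elavl3* and *Elavl4*. They were taken by symbol, and every event listed under one of the 10 symbols was kept. Of these genes 8 had rows in the deposited table, with 26 alternative events in 56 paths, out of 13002 event names in 7788 genes. *Nova1* and *Elavl3* had no row and are absent from all values below. Brain RNA from 6 mice of a B6.CAST congenic line was hybridized to Affymetrix MJAY arrays, 1 array per animal, with 3 animals homozygous for the CAST allele of *Nxf1* (genotype C) and 3 homozygous for the B6 allele (genotype B). The animals formed 3 same-sex littermate pairs, 2 female and 1 male. One female pair was 46 days old and the other 23 days, and in the male pair the genotype B animal was 22 and the genotype C animal 23 days old. No animal carried a transgene or received a treatment by the labels, and the CAST homozygotes also carry CAST sequence at the genes that flank *Nxf1* on chromosome 19, where none of the 8 genes lies. The comparison asks whether the *Nxf1* allele shifts splicing choices in these regulators.

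Polypyrimidine tract binding proteins mostly repress exons, and developing neurons pass from *Ptbp1* to *Ptbp2*. Muscleblind-like proteins favour adult splicing patterns, Rbfox proteins bind UGCAUG motifs around regulated exons, and neuronal Elavl (Hu) proteins bind U-rich RNA and act on splicing and mRNA stability. Many of these genes are themselves alternatively spliced, often through exons that their own protein or a relative controls, so that isoform choice sets where the protein goes in the cell or whether the transcript is kept at all.

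An MJAY event has an exclusion and an inclusion path, read by separate probe sets, and the deposited table gives 1 summarized intensity per path for a set A and a set B. Each intensity stands for the 3 arrays of its set together. No spread between animals could therefore be computed and no test was possible, so every value below is a description of these sets, and with 3 arrays a set its precision is limited. The table names the sets by letter only. Its header defines a mutant over wild-type ratio and the study's methods one of CAST over B6 alleles, so set B was likely the CAST set, provided that the table lists controls first. Changes are therefore written as set B over set A. The change of an event is the log2 of its exclusion to inclusion ratio in set B divided by the same ratio in set A, where a value above 0 means relatively more exclusion in set B. In complex events without an exclusion path, numbered paths are set against 1 intensity that they share in the inclusion column. The header does not define what that shared intensity reads, so for the 4 such member events a change is that of a numbered path relative to the shared value, not of exclusion. Those of *Mbnl2*, *Elavl2* and *Elavl4* are typed only as complex. They are called start events here because their names carry the s0 found in the names of the members' alternative starts. Exclusion and inclusion levels within a set come from different probes and are not isoform shares. At alternative starts and ends these names only label the paths and do not mean that an exon is skipped. Rounding of the intensities to whole numbers alone can move the change of any member path by at most 0.019 on the log2 scale. The genome build of the table's positions is not given in the sources used here.

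For the tissue label, marker genes were read by the intensity of each gene's brightest path. The 5 neuronal markers with rows (of 9 listed) lay between 3230 and 12087 in set A and between 3246 and 11162 in set B, and all 5 astrocyte markers between 1467 and 9980 and between 1621 and 10330. The 3 oligodendrocyte markers with rows (of 5) lay between 1376 and 11314 in set A and between 1330 and 10504 in set B. Microglial markers (2 of 4 with rows) read 258 and 434 in set A and genes of other tissues (3 of 5) 102 to 349, and the median over all paths was 289. These intensities come from different probes, so they do not rank the cell types or show that a type was absent. From set A to set B single neuronal markers differed by -0.11 to 0.07 on the log2 scale and astrocyte markers by -0.03 to 0.19. Both types thus had markers on either side of 0, whereas oligodendrocyte markers differed by -0.18 to -0.05. Microglial markers differed by -0.13 to 0.08, and genes of other tissues by 0.03 to 0.39, the largest in the dim *Umod* (102 and 134). The summed intensity, to which the brightest markers add most, went from 37357 to 36252 for neurons. It went from 28487 to 29900 for astrocytes and from 15956 to 14722 for oligodendrocytes. The part of these differences in the results below was not tested.

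The start choices of *Mbnl1* and *Elavl4* held 2 of the 3 largest ratio changes (exclusion or numbered path over inclusion path) among the regulators, and the promoters from which these genes start are shown for that reason. RefSeq (GRCm38.p6) gives 2 promoters for *Mbnl1* and 4 for *Elavl4*, and the most upstream and the most downstream of each are printed from 250 bases before to 50 bases after the start site, on the gene's strand, with every CG dinucleotide in capitals (its letters read the same on both strands). Which of these starts each array path reads was not matched, since the table's build is not known.
*Mbnl1* upstream start, chr3:60472580-60472879, plus strand: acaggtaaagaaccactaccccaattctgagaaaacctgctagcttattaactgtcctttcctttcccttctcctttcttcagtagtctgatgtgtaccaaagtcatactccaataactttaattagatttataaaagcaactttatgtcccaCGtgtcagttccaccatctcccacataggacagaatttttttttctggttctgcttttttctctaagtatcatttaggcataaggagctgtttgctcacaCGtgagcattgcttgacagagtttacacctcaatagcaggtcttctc
*Mbnl1* downstream start, chr3:60500929-60501228, plus strand: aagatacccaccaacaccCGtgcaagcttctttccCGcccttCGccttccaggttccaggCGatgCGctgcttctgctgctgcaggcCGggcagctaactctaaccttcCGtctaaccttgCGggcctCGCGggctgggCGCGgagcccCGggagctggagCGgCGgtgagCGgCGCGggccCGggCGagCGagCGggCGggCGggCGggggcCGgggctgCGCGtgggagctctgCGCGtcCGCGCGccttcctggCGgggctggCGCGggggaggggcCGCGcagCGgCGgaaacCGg
*Elavl4* upstream start, chr4:110351862-110352161, minus strand: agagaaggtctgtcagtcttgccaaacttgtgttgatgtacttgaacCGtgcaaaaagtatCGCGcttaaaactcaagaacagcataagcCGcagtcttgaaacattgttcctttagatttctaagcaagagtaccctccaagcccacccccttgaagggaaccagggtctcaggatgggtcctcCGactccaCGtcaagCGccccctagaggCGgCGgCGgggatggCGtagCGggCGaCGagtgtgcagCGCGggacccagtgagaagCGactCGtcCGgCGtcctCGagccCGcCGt
*Elavl4* downstream start, chr4:110286785-110287084, minus strand: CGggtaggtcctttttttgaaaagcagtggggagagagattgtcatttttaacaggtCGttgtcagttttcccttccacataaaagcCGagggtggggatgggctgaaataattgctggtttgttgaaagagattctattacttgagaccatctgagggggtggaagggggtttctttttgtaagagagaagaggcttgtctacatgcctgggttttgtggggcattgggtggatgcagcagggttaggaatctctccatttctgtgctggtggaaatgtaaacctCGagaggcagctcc

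In both genes the starts differ in CG content. The upstream *Mbnl1* promoter holds 2 CG dinucleotides and is 39.3% G or C, whereas the downstream promoter, 28349 bases away, holds 41 and is 75.0% G or C. Only 3.03% of the 32851 RefSeq promoters of this length hold more than 41, and their median is 7, with at least 1 CG in 94.6%. In *Elavl4* the order is turned, with 23 CG dinucleotides in the upstream promoter and 4 in the downstream promoter, 65077 bases away.

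Across the 26 events the regulators differed little between the sets. The study's methods called events by a change over 0.5 (about 1.41-fold) together with a limit on the false discovery rate. Only the size was applied here, so the counts are not the study's calls. Events without an exclusion path were read here by their lowest-numbered path. So read, *Mbnl1* and *Ptbp2* each had 1 event with an absolute log2 change over 0.5, and no other gene had any. These 2 events are 7.69% of the 26, and over all 12948 events with values 7.13% passed the same size, so the regulators stood close to the background. The median absolute change was 0.13 over member events and 0.17 over all events. Changes under 0.1 made up 10 of the 26 events (38.5%), against 30.6% of all events. At a lower limit of 0.25, 9 of the 26 events passed, where 33.4% of all events did, and 0 of the 26 passed a change of 1, where 0.216% did. By type, 0 of the 12 member cassettes passed 0.5 (8.56% of all cassettes), 0 of the 2 alternative 3' splice site events (9.11%), 1 of the 4 alternative starts (6.32%) and 1 of the 2 alternative ends (2.78%). The change was above 0 in 12 member events and below 0 in 14, 2 of each being complex events read by a numbered path, and 55.4% of all events were above 0.

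**Figure D1:**
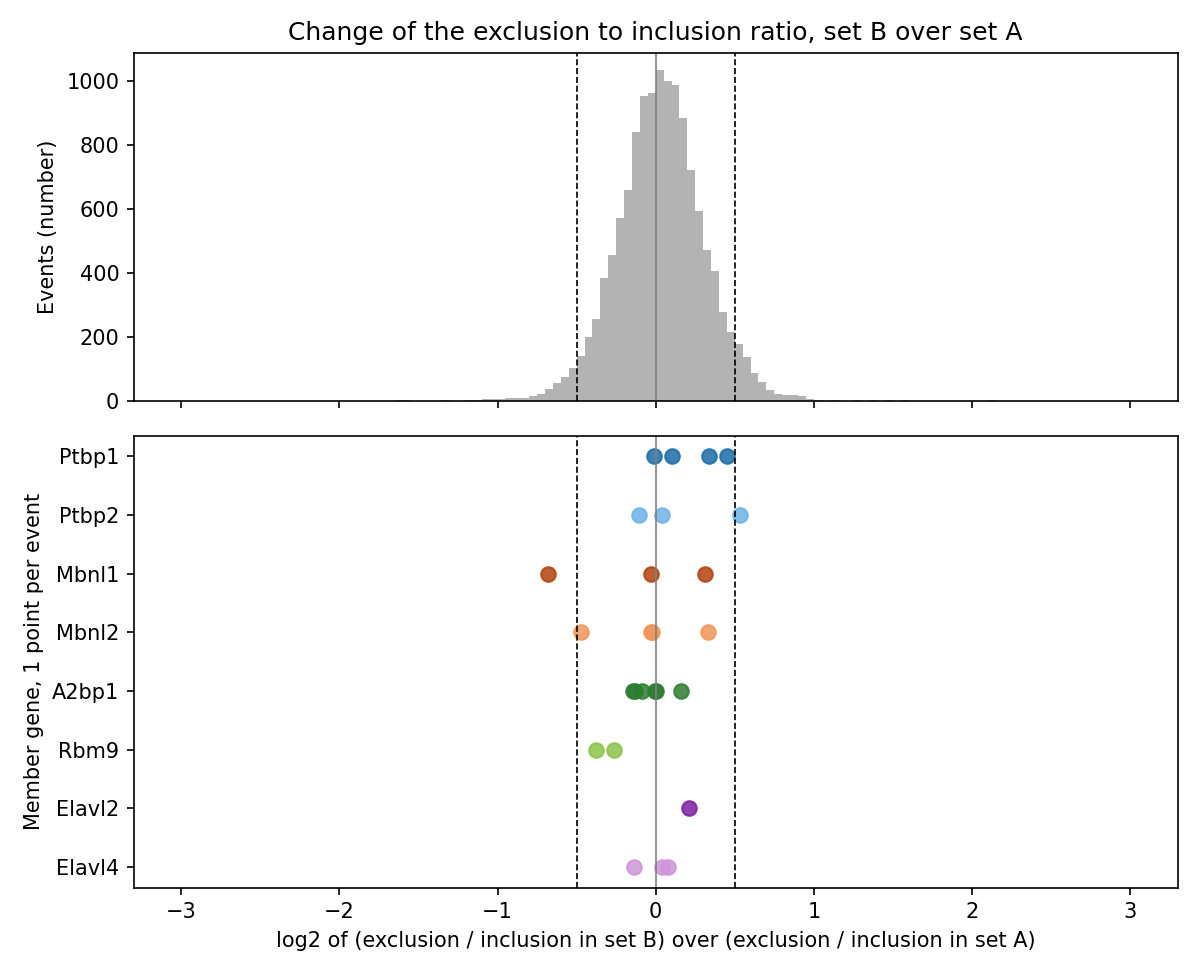
The upper panel is a histogram of the log2 change in the exclusion to inclusion ratio (set B over set A) over all 12948 events, and the lower panel gives the 26 events of the regulators, 1 point per event, with dashed lines at 0.5 on either side of 0. Complex events without an exclusion path are drawn by their lowest-numbered path over the shared intensity. Events of *Mbnl1* and *Ptbp2* lie outside the lines, and all *A2bp1* events lie between -0.14 and 0.16.

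*Ptbp1*, the repressor that keeps neuronal exons out of most other cells, had 4 events. Its 31-base cassette exon (10:79317446-79321517, plus strand) had an exclusion intensity of 784 in set A against 843 in set B, with inclusion at 876 and 689. The change of 0.45 came mainly from the inclusion path, which differed by -0.35 on the log2 scale, and it exceeded that of 90.2% of all events. A 119-base alternative 3' splice site segment (10:79321569-79321816) showed the same direction, with exclusion at 413 in set A and 484 in set B, inclusion at 1785 and 1654, and a change of 0.34. The 78-base exon, whose inclusion lengthens the linker between RNA recognition motifs and marks the PTB4 isoform, was nearly level. Its exclusion intensities were 432 and 435 and its inclusion intensities 469 and 440 (change 0.10). The fourth event, a complex choice further downstream (10:79323694-79325214), stood at 116 and 114 for exclusion and at 2410 and 2391 for inclusion, a change of -0.01. In 3 of the 4 *Ptbp1* events, the nearly level 78-base exon among them, the change was above 0, as it was in 55.4% of all events. A change of 0.5 was passed by 0 of the 4, against 7.13% of all events.

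*Ptbp2*, the neuronal relative, is held down outside neurons when Ptbp1 protein makes its transcripts skip a 34-base exon, which shifts the reading frame and sends them to decay. That exon (3:119427084-119429004, minus strand) had an exclusion intensity of 123 in set A against 105 in set B, with inclusion at 2096 and 1925. Both paths were lower in set B, and the change of -0.11 was below the median size over all events and became -0.04 with an offset of 50 added to each intensity. An alternative end of *Ptbp2* (3:119450509-119464620) showed the larger difference. Its inclusion path measured 321 in set A and 209 in set B, while its exclusion path stood at 1682 and 1583. The resulting change of 0.53, a 1.45-fold higher exclusion to inclusion ratio in set B, exceeded that of 97.7% of alternative ends. With an offset of 50 added to each intensity it was 0.43, under the 0.5 limit, which left 1 member event past it, where 3.07% of all events passed. A neighbouring alternative end (3:119443428-119450509), which begins where the first one stops, was at 2357 and 2318 for exclusion and 1872 and 1791 for inclusion (change 0.04). Of the 4 path intensities of these ends, the largest difference was on the dimmest path, the inclusion path of the first end.

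*Mbnl1* held the largest change of all member events. At its alternative start (3:60277031-60399515, plus strand) the exclusion path measured 1471 in set A against 1215 in set B, with inclusion at 152 and 201. The paths differed in opposite directions, by -0.28 and 0.40, and the change of -0.68 corresponds to a 1.60-fold lower exclusion to inclusion ratio in set B. It exceeded that of 98.1% of all events and 98.6% of alternative starts. The 54-base cassette exon of *Mbnl1*, which muscleblind proteins themselves repress and which favours a nuclear location of the protein, had relatively more exclusion in set B. Its exclusion intensities were 729 and 764 and its inclusion intensities 601 and 508, a change of 0.31. A long cassette of 1049 bases that overlaps the start region (3:60305345-60399515) had 254 and 240 for exclusion and 2800 and 2696 for inclusion (change -0.03). The left edges of this cassette and of the start event lie 28314 bases apart in the table, close to the distance between the RefSeq starts printed above. The array paths were not matched to those starts, and no such comparison was made for *Elavl4*.

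*Mbnl2*, the muscleblind gene with the larger role in brain, has an exon of the same length as the 54-base exon of *Mbnl1*. Its exclusion path measured 388 in set A against 370 in set B, with inclusion at 1821 and 1768, so that its change of -0.03 lay on the other side of 0 from the 0.31 of *Mbnl1*. Whether the 2 exons differ was not tested. The events of the 95-base and 36-base exons that follow it have overlapping spans in the table, introns included (14:120795806-120828177 and 14:120795826-120803859). Exclusion of the 95-base exon measured 129 in set A and 89 in set B, with inclusion at 2311 and 2214, a change of -0.47 that became -0.30 with an offset of 50 added to each intensity. Exclusion of the 36-base exon was instead higher in set B, at 354 and 460, with inclusion at 2103 and 2177, a change of 0.33. In both exons the inclusion path differed little (-0.06 and 0.05 on the log2 scale), and the dimmer exclusion path held most of the difference (-0.54 and 0.38). The start choice of *Mbnl2* is a complex event whose numbered paths are all set against 1 shared intensity of undefined reading, 4091 in set A and 3998 in set B. Its paths read 1080 and 1036, 82 and 77, and 441 and 485, with changes of -0.03, -0.06 and 0.17.

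**Figure D2:**
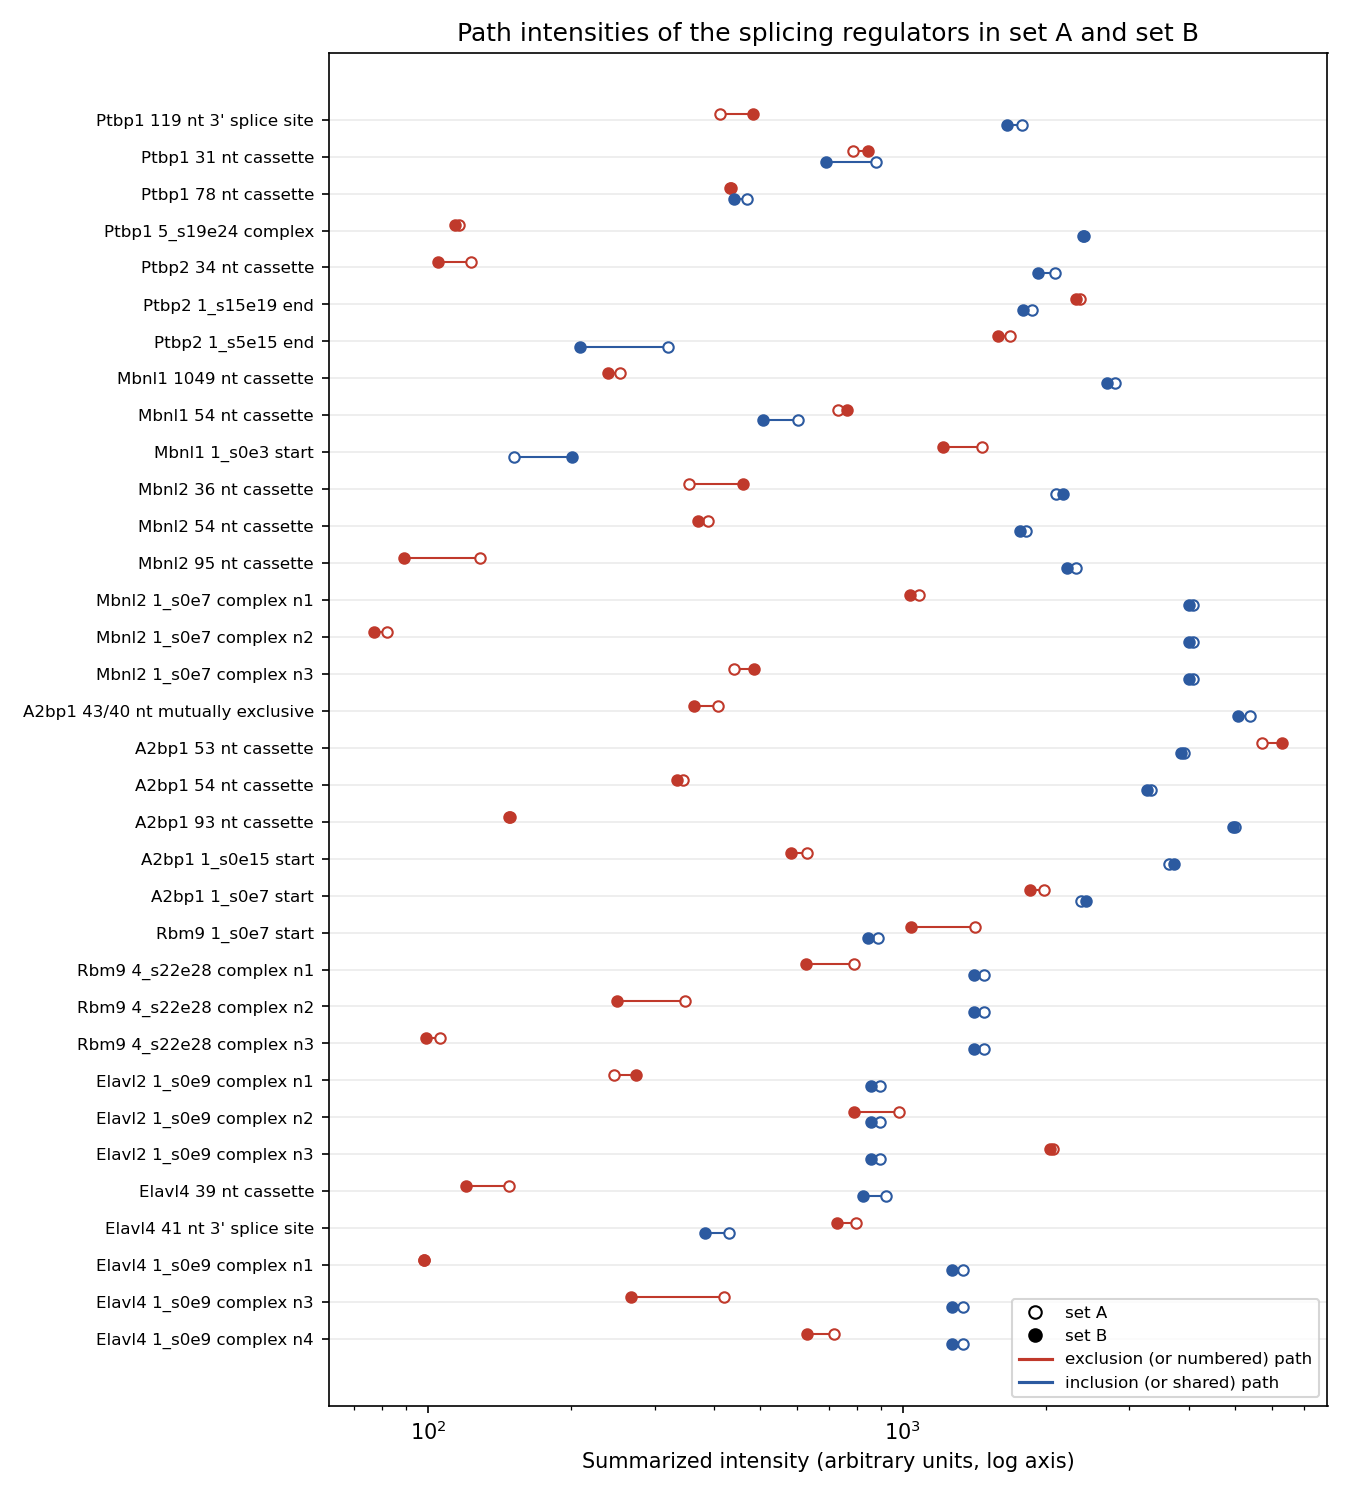
Summarized intensity of each path on a log axis, open circles for set A and filled circles for set B, with exclusion or numbered paths in red and inclusion or shared paths in blue. The longest red or blue lines belong to *Ptbp2* (321 to 209), *Elavl4* (421 to 268) and *Mbnl2* (129 to 89).

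*A2bp1* (*Rbfox1*) had 6 events, the most of any member, and their changes ran from -0.14 to 0.16. The 93-base exon encodes part of the RNA recognition motif, and its skipping, promoted by Rbfox proteins, gives a protein that does not bind RNA. Its exclusion path measured 149 in set A against 148 in set B, with inclusion at 5010 and 4960, a change of 0.0048. The 54-base exon had 344 and 335 for exclusion and 3333 and 3260 for inclusion (change -0.01). The mutually exclusive exons of 43 and 40 bases, of which the first is the muscle and the second the brain form, had 408 and 364 on the path called exclusion and 5372 and 5091 on the other (change -0.09). The table does not say which exon is which path. The 53-base exon, whose inclusion gives a cytoplasmic rather than a nuclear protein, had the largest change of the gene. It stood at 5713 in set A and 6291 in set B for exclusion and at 3913 and 3850 for inclusion (change 0.16), and 47.9% of all events had a smaller change. At both start choices of *A2bp1* the change was below 0. The path called exclusion had 1979 and 1849 against inclusion of 2377 and 2430 (change -0.13), and 628 and 582 against 3643 and 3724 (change -0.14).

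*Rbm9* (*Rbfox2*), which is expressed more widely than *A2bp1*, had lower intensities in set B on every path. At its alternative start (15:76963371-77137358, minus strand) the exclusion path measured 1420 in set A and 1043 in set B, while the inclusion path stood at 885 and 846, a change of -0.38. A complex event near the other end of the gene (15:76916585-76928369) had numbered paths of 789 and 626, 347 and 250, and 106 and 99 in sets A and B, against a shared intensity of 1482 and 1413. Their changes were -0.27, -0.40 and -0.03. The 6 intensities of *Rbm9* differed by -0.47 to -0.07 on the log2 scale, with a median of -0.22. These pooled values have no spread, so whether the transcript itself was less abundant in set B was not tested. In whole brain, fewer cells with a transcript and less of it per cell could not be told apart either.

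In the neuronal Elavl genes the largest difference was on a start path. In *Elavl4* (HuD) the complex start event (4:109924126-110024514, minus strand) listed the paths n1, n3 and n4 against a shared intensity of 1339 in set A and 1271 in set B. Path n3 measured 421 in set A and 268 in set B, a change of -0.58, path n4 was 716 and 628 (change -0.11), and path n1 was 98 in both (change 0.08). Path n1, the lowest in number, stands for this event in the counts above, so that with the path of largest change in its place 3 of the 26 member events passed 0.5, against 7.34% of all events. The 39-base cassette exon, in the linker before the last RNA recognition motif, had 148 and 120 for exclusion and 923 and 824 for inclusion (change -0.14, or -0.07 with an offset of 50). A 41-base alternative 3' splice site segment at the same junction had 795 and 727 for exclusion and 430 and 383 for inclusion, a change of 0.04. In *Elavl2* (HuB) the start paths were 247 and 274, 981 and 788, and 2072 and 2044, against a shared intensity of 894 and 856. Their changes were 0.21, -0.25 and 0.04, so that paths of the same event lay on both sides of 0.

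**Figure D3:**
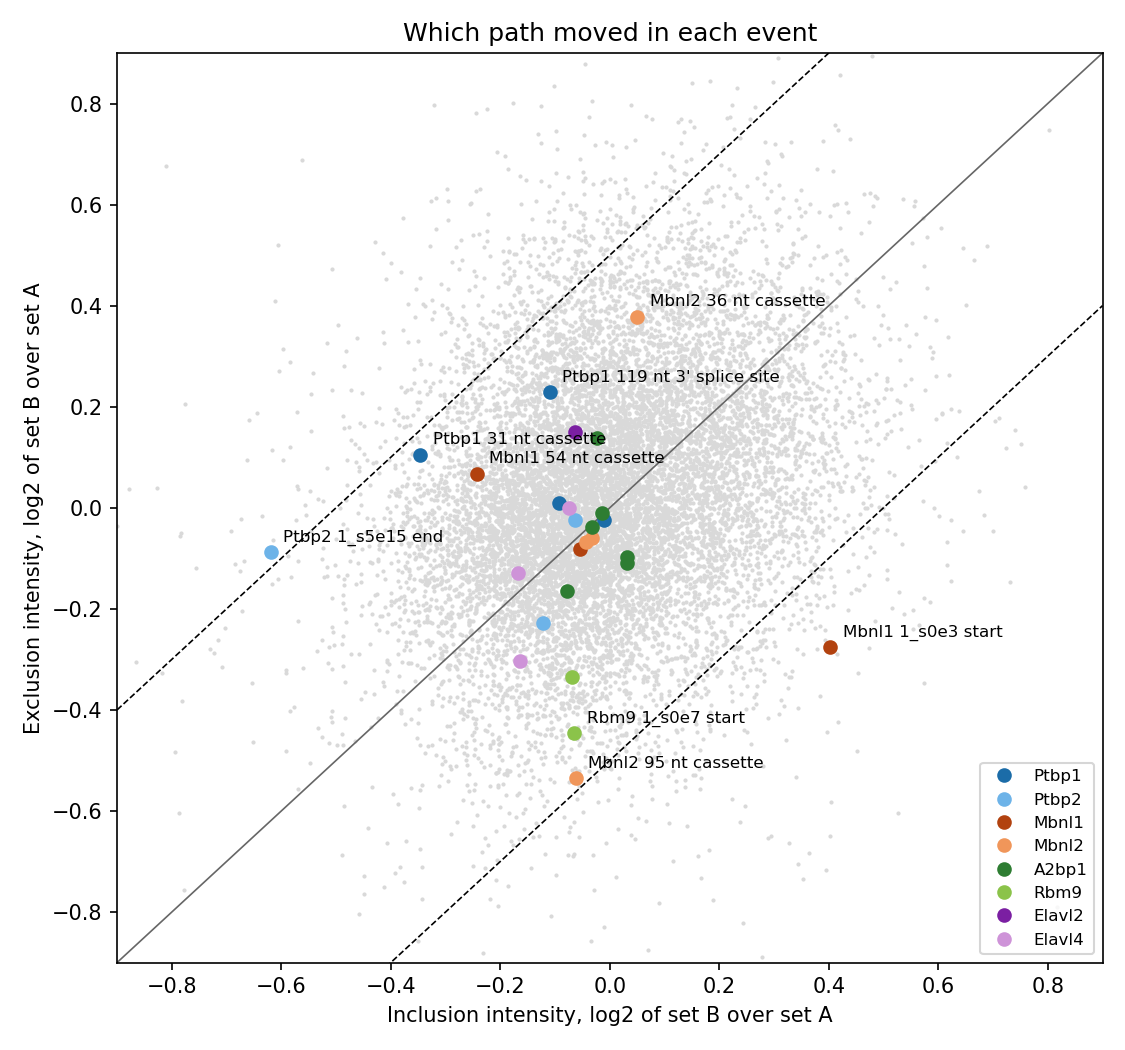
Change of the exclusion intensity against change of the inclusion intensity (log2 of set B over set A) for the member events in colour and all events in grey, where the solid line marks an unchanged ratio and dashed lines a change of 0.5. For *Mbnl1* both paths of the start event differ in opposite directions, whereas for the *Ptbp2* end the inclusion path differs and for the *Rbm9* start the exclusion path. Complex events without an exclusion path are placed by their lowest-numbered path as exclusion and the shared intensity as inclusion. In all, 35 events lie outside the axes.

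Taken by path rather than by ratio, the regulators were on the lower side in set B. Of their 60 separate path intensities 47 (78.3%) were lower in set B, 12 higher and 1 equal, with a median of -0.07 on the log2 scale. The 60 include the shared intensity of each of the 4 complex events without an exclusion path, all lower in set B. Over all 26399 paths, where such shared intensities are not counted, 49.6% were lower, with a median of 0.00, but the share grew with brightness. It was 41.9% for paths between 100 and 300 in set A, 58.2% between 300 and 1000, and 63.2% from 1000 upwards. In the same classes 7 of 9, 18 of 24 and 21 of 25 member intensities were lower, and these share exons and genes, so they are not independent. Every intensity of *Ptbp2* (6 of 6) and *Rbm9* (6 of 6) was lower in set B, as were 7 of 8 of *Elavl4* with the other one equal. By contrast *Ptbp1* had 5 of 8 lower and *A2bp1* 9 of 12, with medians of -0.02 and -0.03. How the arrays were normalized is not given, and the part of the trend with brightness in the members' values was not tested.

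**Figure D4:**
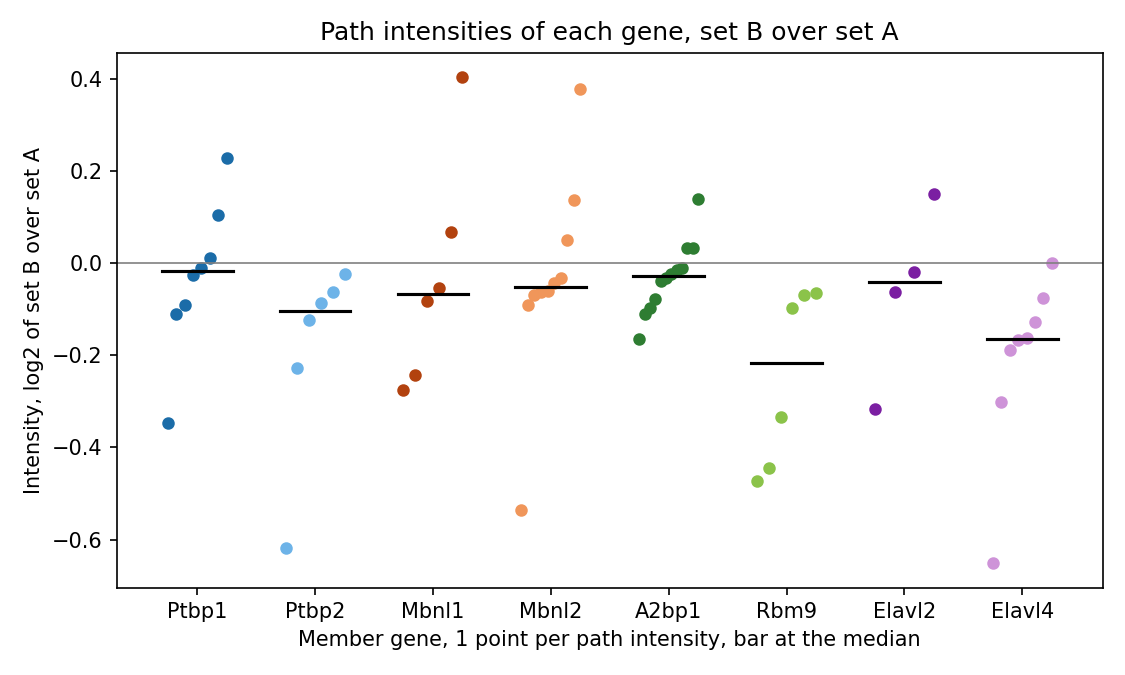
Log2 of set B over set A for each of the 60 path intensities, grouped by gene, with a bar at the gene's median. All points of *Ptbp2* and *Rbm9* lie below 0, and the medians run from -0.22 for *Rbm9* to -0.02 for *Ptbp1*.

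The alternative exons of these genes were short. The 12 cassette exons had a median length of 54 bases, against 101 bases over 3738 cassettes with a length in their name, and all but the 1049-base one lay between 31 and 95 bases. In 7 of the 12 the length was a multiple of 3, which keeps the reading frame, as in 53.2% of all cassettes. The frame-keeping exons had a median absolute change of 0.10 and the others one of 0.16.

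Among 44 other RNA-binding regulators of splicing, 34 had rows, with 74 events. Of these events 6 passed an absolute change of 0.5 (8.11%), 4 with more and 2 with less exclusion in set B, against 4.46% and 2.66% of all events in these directions. The median absolute change was 0.17. More exclusion was found for *Mbnl3*, the third muscleblind gene, whose 247-base exon had dim paths of 87 in set A and 167 in set B for exclusion and 68 and 74 for inclusion (change 0.82). It was also found for a 136-base exon of *Hnrnpa2b1* (0.64) and a 119-base exon of *Hnrpll* (0.53). Their exclusion paths were dim too, at 69 and 94 for *Hnrnpa2b1* and at 96 and 152 for *Hnrpll*. Inclusion stood at 691 and 605 and at 1708 and 1877. Less exclusion was found for a 60-base exon of *Tial1*, with exclusion at 345 and 182 and inclusion at 208 and 190 (-0.79). The other such event was a 239-base alternative 5' splice site segment of *Nova2*, the relative of *Nova1*, with exclusion at 1139 and 1044 and inclusion at 665 and 899 (-0.56).

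Of 30 genes known to carry target exons of these regulators 27 had rows, with 80 events, whether or not an event covers the target exon itself. The count past 0.5 was 2 (2.50%, against 7.13% of all events), a 914-base retained intron of *Camk2d* (0.52) and a 975-base cassette of *Nasp* (-0.54), and the median absolute change was 0.15. The *Nasp* paths were dim, at 78 and 64 for exclusion and 84 and 100 for inclusion. Over all events, 10.3% of those whose change drew on an intensity under 100 passed 0.5. Of those whose change drew only on intensities of 500 or more, 3.18% did. Complex events without an exclusion path were placed by their lowest-numbered path and its shared intensity.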

How the data were processed

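Brain RNA of 6 congenic mice was measured on MJAY arrays. The authors deposited summarized path intensities as whole numbers, pooled over the 3 arrays of a set, and the submitters' notes name Affymetrix Power Tools. Normalization, background correction and genome build are not given in the sources used here. The same table holds the authors' own separation scores and q-values, which were not used.

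From the intensities, log2 changes of set B over set A were computed with no offset or filter. An event took its exclusion path or, without one, its lowest-numbered path. The number in brackets in an event name was read as the segment length in bases, since it fell 3 short of the listed span in 996 of 1062 retained introns. All 10 symbols matched RefSeq, *A2bp1* and *Rbm9* as synonyms. All member events are named, and of the other lists only events past 0.5, of which 1 is not reported here. Members and lists were chosen with earlier results of these data known. Alternatives were other thresholds, an offset of 50, a minimum intensity of 100, the standard comparison's columns and the path of largest change. The functions were tested on simulated data. Python 3.11.15, numpy 2.4.6, pandas 2.3.3 and matplotlib 3.10.9 were used.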

Additional observations from a re-analysis of the deposited data

How the results depend on the processing

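No paired analysis was possible because the table holds 1 pooled value per set, and for the same reason no array could be left out. The count of member events past the threshold was 2 of 26 at 0.5, where 7.13% of all events passed. It was 9 at 0.25 (33.4% of all events) and 0 at 1 (0.216%). With an offset of 50 added to each intensity it was 1, since the *Ptbp2* alternative end had a change of 0.43 there, and 3.07% of all events passed. The median absolute change was 0.11 with this offset and 0.15 with the path of largest change in each event, against 0.13. With that path 3 events passed, the *Elavl4* start (-0.58) being added, against 7.34% of all events. The sign was the other in 3 complex start events, those of *Elavl4*, of *Elavl2* (-0.25, from 0.21) and of *Mbnl2* (0.17, from -0.03). Each of them was under 0.5 by its lowest-numbered path. Keeping only events with every intensity at 100 or more left 22 member events, of which 2 passed, as did 6.33% of all events so kept. The intensities listed for the paired and the standard comparison differed in 0 of 26304 paths, so the standard columns gave the same values for 25 member events and none for the complex event of *Ptbp1*. Dim paths limit the smallest differences that can be read, and without values per array no error can be given for any change.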
